A study of Mus musculus and Homo sapiens
Mus musculus with 16 samples.

Results

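The genes described here are those of 3 large housekeeping machines: the cytosolic ribosome, the proteasome and respiratory complex I. They were taken by symbol from the autosomal protein-coding genes of mouse, as symbols that begin with Rpl or Rps and a number, with Psma, Psmb, Psmc or Psmd, or with Nduf. Of 20665 autosomal protein-coding genes, 168 met the rule: 50 Rpl, 33 Rps, 19 Psma or Psmb, 19 Psmc or Psmd, and 47 Nduf genes. The rule goes by name alone, so 12 of the 168 are not subunits by name. These include 8 Ndufaf genes, which encode assembly factors of complex I, and Rps19bp1, which encodes a binding protein of a ribosomal protein.

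The study prepared H3K4me3 PLAC-seq libraries from fetal mouse forebrain at the embryonic stages E12.5 (2 libraries) and E16.5 (2 libraries), named for days of gestation. In PLAC-seq, DNA fragments near each other in fixed nuclei are ligated, and ligation products are enriched with an antibody, here one against a histone mark of active and poised promoters. No treatment or mutant allele is named for these libraries, the strain of the fetuses is not given, and the labels do not tie the replicates to different litters. The p-values below therefore reflect the spread among these 4 libraries, which may be technical. The series holds 16 samples, and the other 12 were not analysed here. An interaction is a pair of 10 kb bins that the authors listed as called in a library, and it was assigned to a member when either bin holds an end of that gene. The 168 members have 253 end bins among the 30812 bins that hold an end of any of the 20665 genes. Both ends lie in 1 bin for 79 members and in 2 bins for 89. For 73 members every end bin also holds an end of another gene, so those interactions cannot be told apart from the neighbour's. Values below are in the order E12.5 replicate 1, E12.5 replicate 2, E16.5 replicate 1 and E16.5 replicate 2, unless stated otherwise.

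Rpl and Rps genes encode the proteins of the large and the small ribosomal subunit, which translate mRNA. Psma and Psmb genes encode the subunits of the barrel-shaped proteolytic core of the proteasome. Most Psmc genes encode the ATPases of its regulatory cap, and most Psmd genes the other subunits of that cap. Most Nduf genes encode nuclear subunits or assembly factors of complex I, which passes electrons from NADH to ubiquinone in mitochondria. All 3 machines are used by most cells, and the promoters of their genes are often described as short, CpG-rich and little dependent on distant enhancers.

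RefSeq promoter sequences (GRCm38.p6) were matched for 134 of the 168 members, in 150 entries, each running from 250 bases before to 50 bases after a start. The stretches below, from 80 bases before a start to its first 10 transcribed bases, belong to some of the members named below. They were picked for their letters: those of Psmd11, Psmd12, Psmd13, Psmd2, Rpl34 and Rpl38 hold the CCGGAAG core of ETS-family binding sequences. Those of Rps24 and Ndufb1 do not. The picks are thus no measure of how common the motif is among members with contacts. Nearly all Psmd11 contacts come from the bin at its far end, not from the start shown. Ndufaf2, whose bin is called below, has no CCGGAAG within its 300 bases and is not shown. RefSeq lists 2 starts each for Rpl34 and Rps24. The other Rpl34 start has no CCGGAAG within its 300 bases, and the other Rps24 start has its CCAAT match outside the stretch. Each stretch is written 5′ to 3′ on the strand of the gene. Capitals mark a match, on either strand, to CCGGAAG in most stretches, to TGACNNNGC as well in that of Rpl34, and to the CCAAT box in that of Rps24.
Psmd11, chr11:80428535-80428624, plus strand: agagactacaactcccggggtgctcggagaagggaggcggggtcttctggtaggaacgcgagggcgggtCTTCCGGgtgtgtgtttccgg
Psmd12, chr11:107479448-107479537, plus strand: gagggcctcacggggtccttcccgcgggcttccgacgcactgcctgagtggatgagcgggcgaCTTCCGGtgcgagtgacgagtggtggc
Psmd13, chr7:140882314-140882403, plus strand: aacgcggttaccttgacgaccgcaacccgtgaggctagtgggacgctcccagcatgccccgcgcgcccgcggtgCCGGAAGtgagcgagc
Psmd2, chr16:20651572-20651661, plus strand: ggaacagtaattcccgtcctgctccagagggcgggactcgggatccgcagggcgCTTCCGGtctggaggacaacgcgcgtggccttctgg
Rpl34, chr3:130730328-130730417, minus strand: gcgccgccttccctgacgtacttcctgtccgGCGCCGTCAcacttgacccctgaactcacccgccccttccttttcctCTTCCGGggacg
Rpl38, chr11:114668500-114668589, plus strand: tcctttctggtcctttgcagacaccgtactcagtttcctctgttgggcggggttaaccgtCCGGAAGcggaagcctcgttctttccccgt
Rps24, chr14:24490673-24490762, plus strand: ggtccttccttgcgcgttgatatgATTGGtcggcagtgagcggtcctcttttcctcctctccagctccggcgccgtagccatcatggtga
Ndufb1, chr12:101975729-101975818, minus strand: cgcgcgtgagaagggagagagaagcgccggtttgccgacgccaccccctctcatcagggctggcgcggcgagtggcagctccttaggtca

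CCGGAAG was found on either strand in 28% of the 150 member entries and in 11.9% of the 20085 entries of all autosomal protein-coding genes. The share was 64.7% among Psmc and Psmd entries, 36.7% among Rps, 28.9% among Rpl, 14.3% among Nduf and 6.25% among Psma and Psmb. AAGATGGC, the core of YY1 sites, was in 12.7% of member entries against 3.06% of all entries, and GCATGCGC, the core of NRF1 sites, in 6.67% against 3.55%. TATAAA was in 10.0% against 12.7%, CCAAT in 30.7% against 38.1%, GGGCGG in 52.7% against 47.0%, and TGACNNNGC in 19.3% against 13.1%. A start at a C followed by 4 further pyrimidines, as in the 5′ tract of many ribosomal protein mRNAs, was in 15.6% of Rpl and 23.3% of Rps entries, in 0 entries of the other member families, and in 2.23% of all entries. The Rpl38 start printed above is of this kind. The median member entry held 21 CpG dinucleotides against 14 over all entries. These matches describe the letters of the windows and show no binding.

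The 4 lists held 18413, 16075, 35291 and 36794 interactions, supported by 446855, 405491, 892987 and 911710 read pairs, and the sequencing depth behind them is unknown. A gene with 0 interactions is one for which none passed the authors' threshold. The label was checked on the end bins of marker genes. The 7 forebrain genes had 230 to 256 interactions per library in sum, and none was at 0 in all libraries. The sums lean on Emx2, with 85, 99, 65 and 70, and Six3, with 64, 67, 68 and 55. Tbr1 had 5, 5, 43 and 36, and Neurod2 had 1, 1, 3 and 1. The meningeal gene Foxc1, with 10, 11, 17 and 9, lay above Neurod2 in each library. The 6 hindbrain and spinal cord genes summed to 34 to 55 and the 2 meningeal genes to 9 to 21. The 3 blood and endothelial genes summed to 0 to 1, with Tal1 and Pecam1 at 0 in every library, and the 3 microglial genes to 1 to 2, with Cx3cr1 and Csf1r at 0 in every library. The part of other cell types in the results below was not tested.

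Members of all 5 families had listed interactions at both stages, and a larger share of them did so than of genes at large. At least 1 interaction was listed for 60 and 66 members in the E12.5 libraries and for 94 and 96 in the E16.5 libraries. These are 35.7%, 39.3%, 56.0% and 57.1% of the 168 members, where 22.5%, 20.9%, 34.4% and 36.2% of all 20665 genes had one. The share was above that of all genes in each of the 4 libraries. Over any library, 111 members (66.1%) had an interaction against 44.4% of all genes, and 41 (24.4%) had one in all 4 libraries against 14.9%. The remaining 57 members had none in any library.

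Within the ribosome, 37 of 50 Rpl genes and 24 of 33 Rps genes had an interaction in some library, and 16 and 7 had one in all 4. Rpl5, Rpl15, Rpl27, Rpl32, Rpl35a, Rpl37 and Rpl41 were among the 13 Rpl genes with none, as were Rps3, Rps16, Rps18, Rps20, Rps28 and Rps29 among the 9 such Rps genes. In the proteasome, 12 of 19 Psma and Psmb genes and 14 of 19 Psmc and Psmd genes had one. Core subunit genes Psma3, Psma4, Psma8, Psmb4, Psmb9, Psmb10 and Psmb11 had none, the last 3 being genes of immune or thymic forms of the core. The cap genes with none were Psmc4, Psmc6, Psmd1, Psmd4 and Psmd6. Nduf genes had the lowest share, with 24 of 47, and the 23 without any included Ndufs1, Ndufs4, Ndufs8, Ndufa9 and Ndufab1. Among the 8 assembly factor genes 4 had an interaction.

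**Figure D1:**
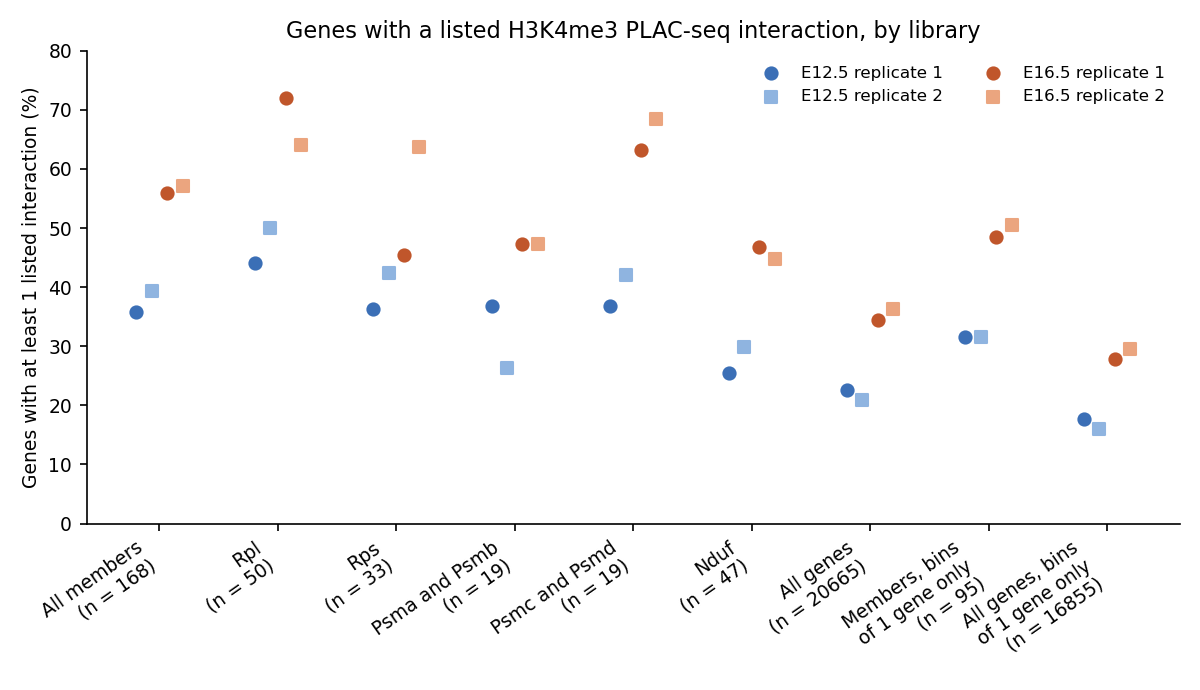
Percent of genes with at least 1 listed interaction (y axis) for all 168 members, the 5 families and all 20665 genes, and for members and all genes counted only over bins that hold an end of a single gene; each point is 1 library. All 4 member points lie above the point of the same library for all genes, and in every group shown both E16.5 points lie above both E12.5 points.

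Gene size and neighbours bear on such shares, so the counts were repeated on narrower sets of bins. Over bins that hold an end of a single gene, 31.6%, 31.6%, 48.4% and 50.5% of 95 members had an interaction against 17.6%, 16%, 27.9% and 29.6% of 16855 genes. Among genes with both ends in 1 bin, the shares were 38.0%, 38.0%, 54.4% and 54.4% of 79 members against 14.7%, 14.2%, 20.7% and 21.2% of 4276 genes. Among genes with ends in 2 bins they were 33.7%, 40.4%, 57.3% and 59.6% of 89 members against 24.6%, 22.7%, 37.9% and 40.2% of 16389 genes. The member share was the higher one in every library on all 3 sets. No set was matched for promoter activity, and its part in these shares was not tested. Where the start is known from RefSeq, the start bin alone carried an interaction for 29.9%, 30.6%, 50.0% and 49.3% of 134 members and for 18.5%, 17.6%, 29.7% and 31.7% of 16457 genes. In the 76 members with a known start and an end bin apart from it, the start bin had an interaction in 25.0%, 31.6%, 51.3% and 51.3%, and the other end bin in 13.2%, 17.1%, 26.3% and 31.6%.

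Members with any interaction were more numerous at E16.5. The share was 37.5% ± 2.53 (SD, n = 2) at E12.5 and 56.5% ± 0.842 (SD, n = 2) at E16.5, a difference larger than the spread between replicates. The two-sided exact permutation p was 0.33, which is the smallest that 2 libraries against 2 can give. Each family ran the same way: 47.0% against 68.0% for Rpl, 39.4% against 54.5% for Rps, 31.6% against 47.4% for Psma and Psmb, 39.5% against 65.8% for Psmc and Psmd, and 27.7% against 45.7% for Nduf, each with an exact permutation p of 0.33. The E16.5 lists were 2.09 times as long. With every list held to its 16075 interactions of lowest FDR, the shares of members were 36.3% at E12.5 and 39.3% at E16.5 (exact permutation p = 0.667).

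By number, 218, 200, 375 and 409 listed interactions touched a member bin. The mean was 209 ± 12.7 (SD, n = 2) at E12.5 and 392 ± 24 (SD, n = 2) at E16.5, 1.88 times as many, with an exact permutation p of 0.33. As a share of each list this was 1.18%, 1.24%, 1.06% and 1.11%, so the E16.5 libraries were the lower ones (mean 1.21% against 1.09%, exact permutation p = 0.33). With lists of equal length, the mean number was 193.5 at E12.5 and 174 at E16.5, so the order of the stages in number is reversed there. The pair of E16.5 values lay above the pair of E12.5 values for 47 members (28%), where 17.6% of all genes had this pattern. The opposite order was counted for 5 members (2.98%) against 1.06%. Among them were the small-subunit gene Rps9, with 3, 3, 0 and 2 interactions, and the complex I subunit gene Ndufa3, with 2, 2, 1 and 0. In both E16.5 libraries and no E12.5 library, interactions were listed for 17 members (10.1%), where 7.48% of all genes had them so. The reverse was counted for 0 members, against 0.373% of all genes. These shares are over all 168 members and all 20665 genes, of which 111 and 9169 had any interaction. They therefore also carry the larger share of members with any, and show no stage bias of members by themselves.

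Most members had few interactions. The mean was 1.30, 1.22, 2.26 and 2.46 per member, against 0.908, 0.837, 1.71 and 1.91 over all genes. At least 10 were listed for 3, 2, 8 and 8 members, which is 1.79%, 1.19%, 4.76% and 4.76%, close to the 1.80%, 1.74%, 4.17% and 4.84% of all genes. The 10 best-connected members held 35.6% of the 1216 counts over genes and libraries, and the 20 best-connected held 53.8%.

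Among the proteasome cap genes, Psmd12, a subunit of the lid of the cap, had 22, 20, 26 and 26 interactions, the most of any member. Its start lies in a bin (chr11:107470001-107480000) that also holds the start of Pitpnc1, a phosphatidylinositol transfer protein gene. Of the 29 distinct contacts of that bin, 18 lie within Pitpnc1 at 80 to 270 kb, 5 within the chromatin remodelling gene Bptf and 3 within the nucleolar protein gene Nol11. Psmd11, another lid subunit gene, had 16, 12, 21 and 20. Nearly all of these belong to the bin at its far end (chr11:80470001-80480000), which had 15, 12, 18 and 20 and which also holds an end of Cdk5r1, the gene of the neuronal CDK5 activator p35. The bin with the Psmd11 start itself had 1, 0, 3 and 0. All 23 distinct contacts of Psmd11 lie within the myosin gene Myo1d, 20 to 250 kb away. Other cap genes were far below these: Psmd13 had 1, 1, 5 and 4 interactions and Psmd2 had 2, 3, 2 and 4. Of the core subunit genes, Psmb7 had 8, 4, 4 and 1, Psma7 with 2, 2, 3 and 2, Psmb6 with 1, 2, 2 and 2, and Psmb3 with 3, 1, 1 and 1.

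Rpl34 led the large-subunit genes with 15, 9, 10 and 13, the stages overlapping. Its bins hold no other gene end, and of its 21 distinct contacts 9 lie within Lef1, the gene of a Wnt-responsive transcription factor, at 380 to 490 kb, and 9 within Hadh, a mitochondrial fatty acid oxidation gene, at 500 to 550 kb. Rpl3 had 6, 5, 17 and 16, with both E16.5 libraries above both E12.5 libraries. Its distinct contacts numbered 23, of which 8 lie within Cbx7 at 120 to 160 kb and 3 reach Cbx6 with Npcd at 240 to 260 kb. Cbx6 and Cbx7 encode chromobox proteins of Polycomb complexes. Rpl29 had 7, 7, 10 and 11, with 11 of its 14 distinct contacts in the centriolar gene Poc1a, and Rpl23a had 8, 6, 9 and 8. Among small-subunit genes, Rps24 had 9, 5, 9 and 6 from a bin with no other gene end. Of its 18 distinct contacts, 13 touch no protein-coding gene, at 150 to 950 kb. The other 5 reach Zmiz1, a transcriptional coregulator gene, at 960 to 1000 kb. Rps19bp1 had 5, 6, 11 and 6, Rps12 had 3, 2, 5 and 5, and Rps14 had 4, 1, 7 and 2. The stages overlapped for Rps24, Rps19bp1 and Rps14.

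Of the complex I genes, Ndufb1, an accessory subunit gene, had 2, 2, 9 and 16, with no overlap between the stages. Its bin also holds the start of Cpsf2, a gene of the mRNA cleavage machinery, and 8 of its 19 distinct contacts lie within Rin3 at 310 to 410 kb. The assembly factor gene Ndufaf8 had 4, 6, 9 and 8, the accessory subunit gene Ndufb9 had 4, 5, 10 and 6, and Ndufs7, a core iron-sulfur subunit gene, had 6, 7, 6 and 6. Contacts of Ndufs7 were short, with partners in Cirbp and Efna2 at 50 to 90 kb, and its number was nearly the same in the 4 libraries.

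**Figure D2:**
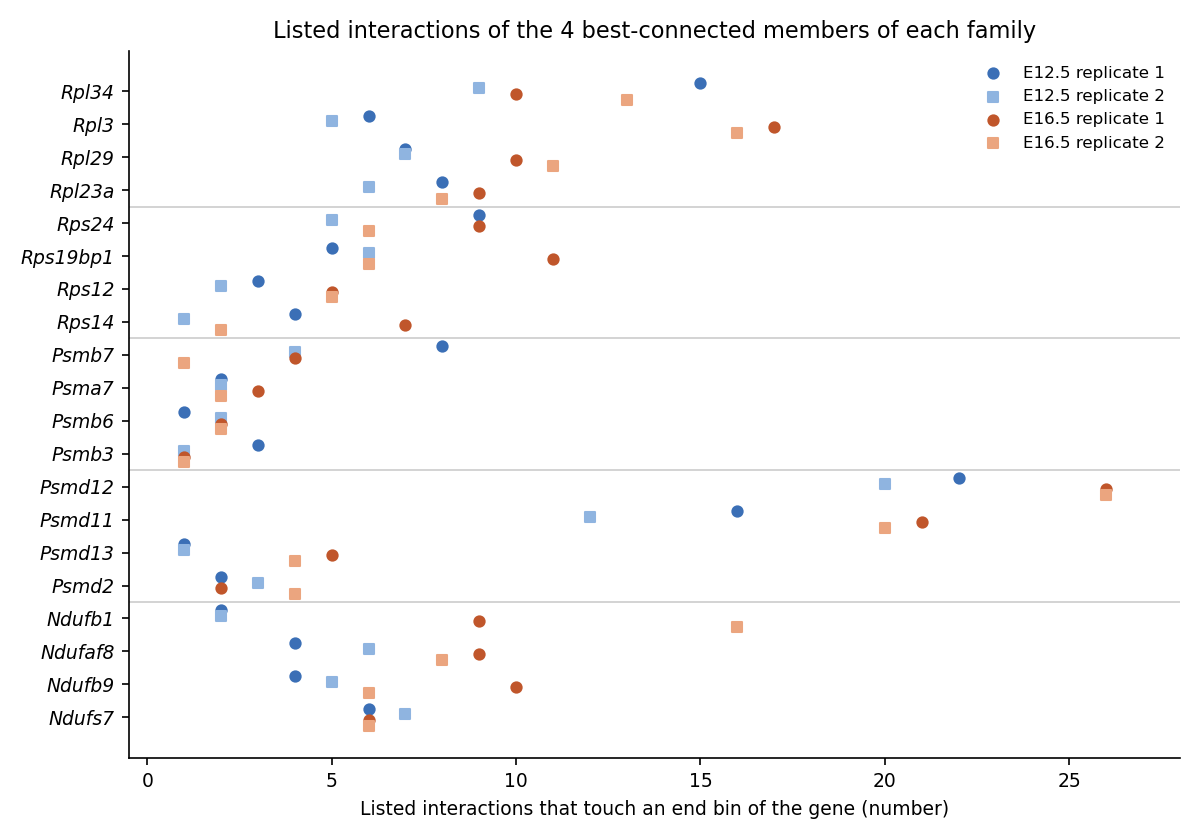
Number of listed interactions that touch an end bin (x axis) for the 4 members with the largest sums in each of the 5 families, in the order Rpl, Rps, Psma with Psmb, Psmc with Psmd, and Nduf; each point is 1 library. Psmd12 and Psmd11 lie at 20 to 26 and 12 to 21, and no other member shown exceeds 17.

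Member interactions were shorter than those of the lists as a whole. The median distance was 185, 170, 240 and 210 kb, where all interactions had 260, 260, 300 and 290 kb and those of all gene-end bins 260, 260, 300 and 280 kb. The member median was the lowest of the 3 in each library. Interactions of at most 100 kb made up 18.3%, 17%, 13.9% and 15.9% of member interactions, against 12.3%, 12.8%, 9.15% and 11.2% of all. Those of 500 kb or more numbered 29 of 218, 25 of 200, 86 of 375 and 74 of 409, in each library a smaller share than the 20.6%, 19.8%, 26.3% and 23.8% of all interactions. The best-connected members, Psmd12 and Psmd11, had medians of 240 and 130 kb. Between stages, the member median was 177.5 ± 10.6 kb (SD, n = 2) at E12.5 and 225 ± 21.2 kb (SD, n = 2) at E16.5 (exact permutation p = 0.33). With lists of equal length it was 180 and 185 kb (exact permutation p = 1).

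**Figure D3:**
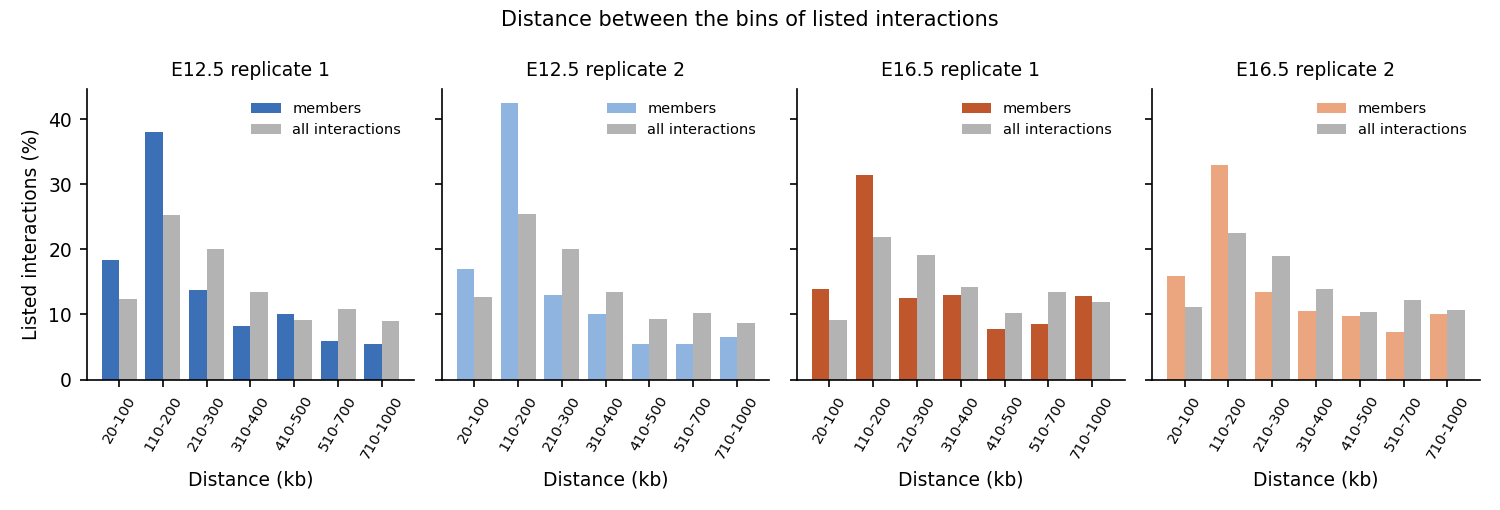
Percent of listed interactions (y axis) in 7 classes of distance between the bins in kb (x axis), in 1 panel per library; coloured bars are member interactions and grey bars all interactions of the library. In the class of 110 to 200 kb the member bars stand at 38.1%, 42.5%, 31.5% and 33.0% and the grey bars at 25.2%, 25.4%, 21.8% and 22.5%.

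The longest contacts listed in all 4 libraries, taken once per member, belonged to 4 ribosomal or ribosome-related genes and 1 complex I gene. Rps24 reached a bin within Zmiz1 at 970 kb, with 16, 15, 25 and 34 read pairs. Rps15a reached the end of Xylt1, a xylosyltransferase gene, at 720 kb with 10, 18, 19 and 20 read pairs. That contact comes from the bin at the far end of Rps15a, which holds no other gene end. Rpl34 reached Hadh at 540 kb with 12, 11, 15 and 11. Rps19bp1 reached Tnrc6b, a gene of RNA silencing, at 450 kb with 16, 22, 25 and 33, and Ndufb1 reached Rin3 at 410 kb with 14, 28, 36 and 58. For all but Rpl34, the read pairs of both E16.5 libraries lay above those of both E12.5 libraries, before any scaling to library totals.

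Partners were mostly in or at other genes. The partner bin held an end of another protein-coding gene in 36.7%, 43.0%, 38.1% and 40.3% of member interactions, and lay inside a gene without an end in 45.0%, 39.5%, 44.3% and 43.0%. It touched no protein-coding gene in 18.3%, 17.5%, 17.6% and 16.6%. Seen from all gene-end bins, the partner held a gene end in 30.4%, 30.9%, 29.9% and 30.7% and touched no gene in 38.4%, 38.4%, 36.9% and 35.8%. Member interactions thus had the larger share of gene-end partners in each library. Of the bins 20 to 1000 kb away, 24.9% hold a gene end around member bins and 22.3% around all gene-end bins, and 34.7% against 41.6% touch no gene. These shares count every end bin and every distance alike, with or without interactions, so they cannot be set directly against the partner shares. The part of local gene density in the partner shares was not tested. The share with a gene-end partner differed between the stages by -0.611 percentage points (E16.5 minus E12.5, 39.8% ± 4.46 against 39.2% ± 1.56, SD, n = 2 each, exact permutation p = 1), less than the spread between replicates.

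**Figure D4:**
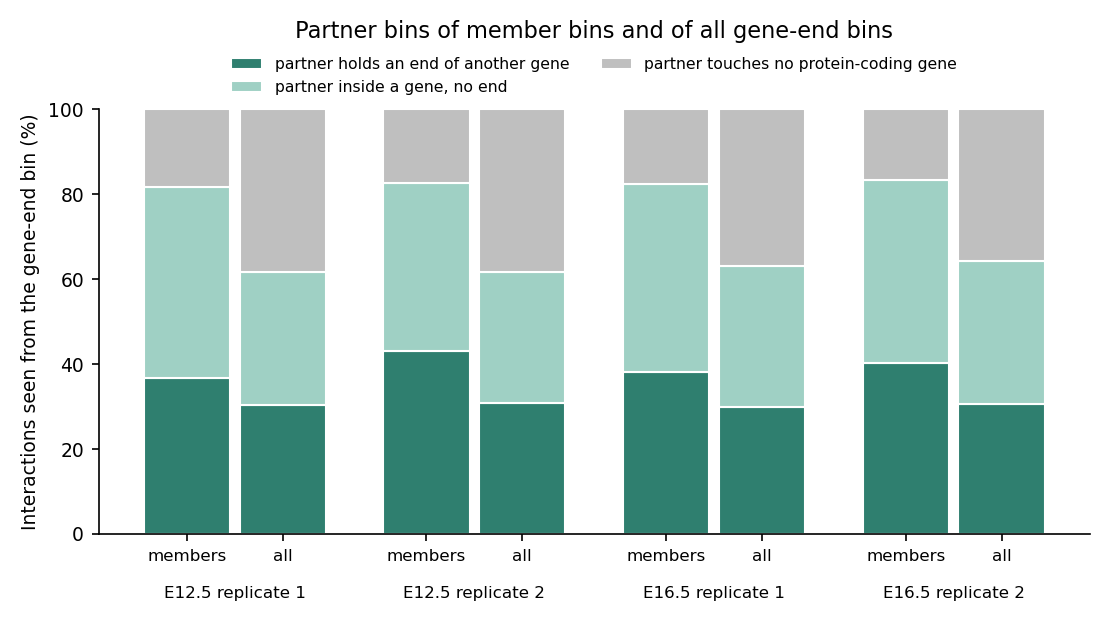
Percent of interactions (y axis) by what the partner bin holds, for member bins (left bar of each pair) and all gene-end bins (right bar) in each library. The partner touches no protein-coding gene in 16.6% to 18.3% of member interactions and in 35.8% to 38.4% of those of all gene-end bins.

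Contacts between members were counted as well, with member bins making up 253 of the 30812 gene-end bins. Of 656 distinct member contacts, 2 join bins of different members: Rpl23 with the bin of Rpl19 and Cacnb1 at 250 kb, listed in E16.5 replicate 2 with 26 read pairs, and Ndufs3 with Psmc3 at 160 kb, listed in E12.5 replicate 1 with 22. Each was in a single library. Whether this number differs from that of other gene sets of the same size was not tested. For the best-connected members of each family, the partner with the most read pairs was as follows. The bin that holds an end of Psmb7 and an end of Nek6 met a bin inside Lhx2, a LIM homeobox gene, at 230 kb with 55, 58, 56 and 42 read pairs, and Rpl34 met the Lef1 end bin at 380 kb with 27, 20, 26 and 20. Rpl3 met Cbx7 at 140 kb with 40, 36, 66 and 61. The bin of Psma7 and Ss18l1 met an end of Taf4, a gene of the general transcription factor TFIID, at 130 kb with 31, 46, 68 and 44, and that of Ndufb9 and Tatdn1 met an end of Sqle, the squalene epoxidase gene, at 380 kb with 41, 30, 49 and 46. Read pairs were higher for the bin of Ndufs7 and Pwwp3a with the bin of Cirbp, Efna2 and Fam174c at 70 kb, with 116, 120, 161 and 114, and for Psmd11 with Myo1d at 30 kb, with 95, 103, 201 and 187. Rps14 met Camk2a, a neuronal kinase gene, at 200 kb in 3 libraries with 20, 20 and 22. For Rps12, Psmb6, Psmb3, Psmd13 and Ndufaf8 the partner with the most read pairs touched no protein-coding gene.

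Of the 656 distinct member contacts, 81 (12.3%) were listed in all 4 libraries, as were 11.7% of all 58543 distinct contacts, and 351 were listed in a single library. Both E16.5 libraries and no E12.5 library listed 75 member contacts (11.4%, against 15.2% of all), and both E12.5 libraries and no E16.5 library listed 11 (1.68%, against 1.83%). Ndufb1 and Rpl3 had 5 E16.5-restricted contacts each, Ndufaf2 had 4, and 5 members had 3 each: Psmc2, a proteasome ATPase gene, Psmd11, Psmd12, Rpl17 and Rps27a. Of the 9 members with E12.5-restricted contacts, Rpl7a had 2, and Ndufaf8, Psmb3 and Rpl17 were among those with 1.

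The comparison of contact number asks which gene-end bins changed how many partner bins they have between the stages. It was made by edgeR's quasi-likelihood test on 2449 gene-end bins with at least 10 interactions in sum. Changes are relative to TMM-scaled totals over these bins, so a log2 change of 0 does not mean an equal number at both stages. The Rps12 bin, with 3, 2, 5 and 5, had a log2 change of 0.25. That of Ndufv2, with 3, 3, 4 and 4, had one of -0.32. Of 35 member bins tested, 1 was higher at E16.5 and 0 were lower after Benjamini-Hochberg adjustment at 0.05, where 7.39% of all tested bins were called higher, 2.16% lower and 9.55% either way (181 and 53 bins, or 156 and 88 when library totals were used without TMM scaling). At an unadjusted p under 0.05 there were 5 higher and 0 lower, and DESeq2 called 0 in either direction. The called bin (chr13:108150001-108160000) holds the start of Ndufaf2, an assembly factor gene of complex I, and also the start of Ercc8, a DNA repair gene. Its interactions cannot be assigned to either gene. It had 0, 0, 5 and 7 interactions (adjusted p = 0.0404 by edgeR). No fold is given, since both E12.5 libraries are at 0. Of the 9 distinct contacts of Ndufaf2, 7 touched no protein-coding gene, at 690 to 1000 kb. The call was kept in 2 of the 10 alternatives that gave an adjusted p (0.00978 to 0.474), and leaving out any 1 of the 4 libraries ended it (0.102 to 0.474).

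Next in order came the bin of Ndufb1 and Cpsf2 with 2, 2, 9 and 16 interactions (log2 change 1.85, SE 0.51, adjusted p = 0.0539 by edgeR) and the start bin of Rpl38 with 0, 2, 8 and 9 (log2 change 2.24, SE 0.74, adjusted p = 0.0880). Rpl38 encodes a large-subunit protein, and 15 of its 19 distinct contacts lie within the adhesion gene Sdk2, at 600 to 860 kb. Neither passed the test as reported. The Ndufb1 and Cpsf2 bin passed it among bins with a sum of at least 20 (adjusted p = 0.0370 by edgeR), and the Rpl38 bin passed it without E12.5 replicate 2 (adjusted p = 0.0479). The Rpl3 bin with 3, 4, 13 and 13 had an adjusted p of 0.192 by edgeR, and that of Ndufa6 with 1, 0, 3 and 9 one of 0.169. The lowest values were in the end bin of Psmb7, with 5, 3, 3 and 0 (log2 change -2.05, adjusted p = 0.210 by edgeR), and in the start bin of Rpl34, with 10, 6, 6 and 7 (log2 change -1.03, adjusted p = 0.209). For the best-connected bins the values were -0.43 at Psmd12 (adjusted p = 0.398 by edgeR) and -0.25 at the Psmd11 far end (adjusted p = 0.731). Over the 35 bins the median log2 change was 0.08, against 0.19 over all 2449, and -0.09 against 0.01 without TMM scaling. Both E16.5 libraries exceeded both E12.5 libraries in 19 of the 35, where 59% of all tested bins did so.

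Contact strength was compared on the read pairs of contacts listed in all 4 libraries, which leaves out contacts gained or lost. Of 81 member contacts among 6875, from 30 member bins, 8 rose from E12.5 to E16.5 and 0 fell (edgeR's quasi-likelihood test, Benjamini-Hochberg at 0.05), where 5.88% of all contacts rose and 4.58% fell, 10.5% in all. At an unadjusted p under 0.05 there were 15 higher and 5 lower, and DESeq2 called 1 higher and 0 lower. The 8 are not 8 independent cases: 7 share the Psmd11 far-end bin with Cdk5r1 and have neighbouring partners in Myo1d, and the other belongs to the shared start bin of Psmd12 and Pitpnc1. Without the Psmd11 bin, 1 of 69 contacts was called, and without both bins 0 of 52, the smallest adjusted p by edgeR there being 0.0747.

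The largest rise by p was that of the Psmd11 bin with Myo1d at 130 kb, with 43, 53, 114 and 173 read pairs. It was 2.33-fold relative to TMM-scaled totals over the tested contacts (log2 change 1.22, SE 0.23, adjusted p = 0.000191 by edgeR). At 140 kb the read pairs were 25, 42, 90 and 84 (2.01-fold, adjusted p = 0.00389), at 190 kb 34, 53, 99 and 116 (1.92-fold, adjusted p = 0.00472), at 90 kb 47, 46, 110 and 110 (1.84-fold, adjusted p = 0.00543) and at 100 kb 30, 49, 91 and 95 (1.83-fold, adjusted p = 0.0113), all by edgeR. In all of these both E16.5 libraries lay above both E12.5 libraries. All 12 tested contacts of that bin had a log2 change above 0, with a median of 0.81, while its contact number did not pass the test. The Psmd12 bin met a bin with the far end of Pitpnc1 at 270 kb, with 17, 15, 51 and 47 read pairs (2.37-fold, log2 change 1.25, SE 0.28, adjusted p = 0.00202 by edgeR). Of the 17 tested contacts of the Psmd12 bin, 11 had a log2 change above 0, with a median of 0.16. Over all 81 member contacts the median was 0.04, against -0.01 over all 6875.

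Among the contacts that did not pass, Ndufb1 with Rin3 had 14, 28, 36 and 58 read pairs (log2 change 0.80, adjusted p = 0.0747 by edgeR), Rps24 with Zmiz1 at 960 kb had 19, 24, 49 and 39 (0.67, adjusted p = 0.115) and Psmb7 with Lhx2 had 55, 58, 56 and 42 (-0.57, adjusted p = 0.113). The Ndufb1 contact passed when E12.5 replicate 2 (adjusted p = 0.0244 by edgeR) or E16.5 replicate 1 (adjusted p = 0.00767) was left out. Each of the 8 calls was kept in 4 to 10 of the 10 to 12 alternatives that gave it an adjusted p. The number called fell to 2 without E12.5 replicate 1 and to 5 without E12.5 replicate 2, and was 0 with the authors' expected count as an offset and 0 with contacts listed in at least 3 libraries. The offset also made the 7 Psmd11 changes smaller, with log2 values of 0.03 to 0.74 in place of 0.61 to 1.22, whereas that of Psmd12 at 270 kb was 1.38. With contacts listed in at least 3 libraries the Psmd11 values were 0.63 to 1.25. In that setting, a library that did not list a contact entered with 0 read pairs. Among contacts averaging 40 or more read pairs, 7 member contacts rose, all of Psmd11, and 1 fell, the Lhx2 contact of the Psmb7 and Nek6 bin (log2 change -0.64, adjusted p = 0.0436 by edgeR).

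**Figure D5:**
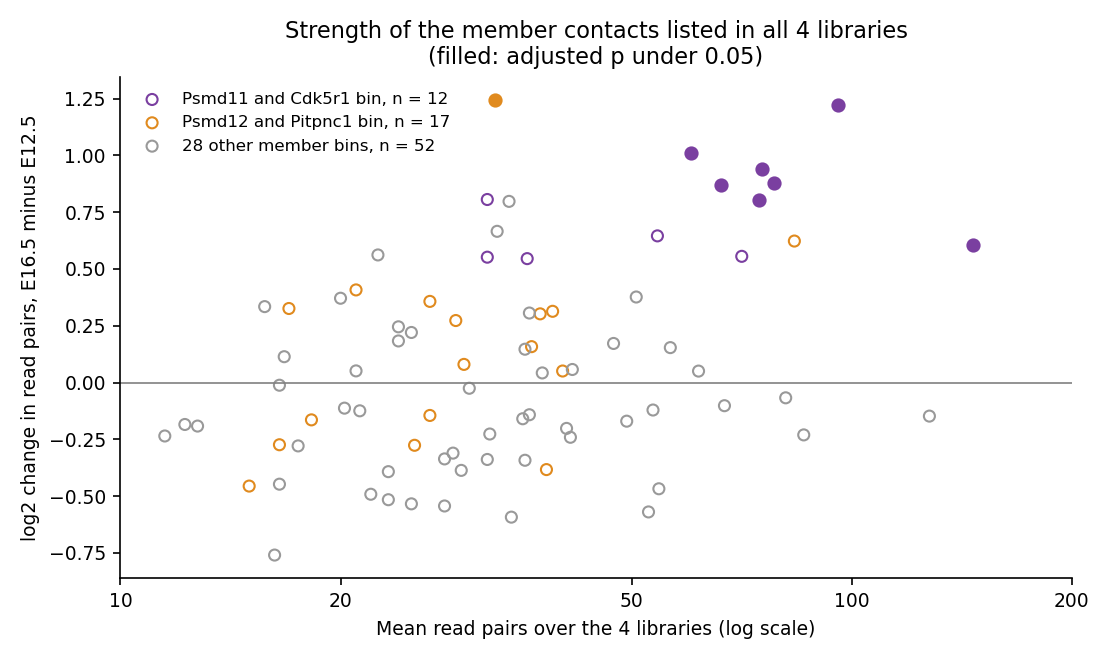
Log2 change in read pairs from E12.5 to E16.5, relative to TMM-scaled totals (y axis), against the mean read pairs over the 4 libraries (x axis, log scale). Points are the 81 member contacts listed in all 4, and filled points have an adjusted p under 0.05 by edgeR. All 12 points of the Psmd11 and Cdk5r1 bin lie above 0 and 7 are filled, 1 of 17 points of the Psmd12 and Pitpnc1 bin is filled, and none of the 52 points of the 28 other bins is.

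Other genes of the same pathways were counted the same way. At least 1 interaction in any library was listed for 6 of 7 other cytosolic ribosome genes (85.7%), 49 of 78 mitochondrial ribosomal protein genes (62.8%), 44 of 68 translation factor genes (64.7%), 9 of 12 genes of proteasome activators, inhibitor and chaperones (75%), and 26 of 47 genes of the other respiratory complexes and the ATP synthase (55.3%), where 44.4% of all genes had one. In contact number, by edgeR's quasi-likelihood test, 0 of 2, 1 of 10, 1 of 14, 0 of 2 and 1 of 10 of their bins were called, near the 9.55% of all tested bins. The bin of Mrps23, a mitochondrial small-subunit gene, with Cuedc1 had 14, 9, 7 and 8 interactions and was lower at E16.5 (log2 change -1.34, SE 0.35, adjusted p = 0.0472). That of Eif4e, the cap-binding translation factor gene, had 0, 0, 6 and 5 (adjusted p = 0.0490) and that of Atp5g2, a gene of the ATP synthase ring, had 0, 0, 5 and 8 (adjusted p = 0.0390), both higher at E16.5 by edgeR.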

How the data were processed

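H3K4me3 PLAC-seq was analysed in 4 fetal forebrain libraries, 2 at E12.5 and 2 at E16.5, grouped by the labels. The mm10 build, BWA and SAMtools are listed, with no versions, per the submitters' processing notes, while the tool that called interactions is not given in the sources used here. For each called pair of 10 kb bins the authors deposited, per the file headers, a count of read pairs, the expected signal, an FDR taken here as a q-value, the count of pairs in its cluster and a −log10 p of the cluster. Which biases the expected signal covers is unknown. Read-pair counts entered the tests unaltered, and the authors' calls set which pairs are listed.

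Genes and promoters came from RefSeq tables of GRCm38.p6, whose primary sequence is that of mm10, and 7 genes that met the name rule outside the autosomes were left out. A Psmd gene that the rule leaves out, and the values of a few single genes, are not reported here. Motifs were searched on both strands of 300 bases. Contact number and contact strength were fitted over all gene-end bins and all shared contacts with edgeR 4.0.16 in R 4.3.3 (TMM, robust quasi-likelihood, Benjamini-Hochberg at 0.05), checked on simulated data, with E12.5 as the baseline of every change. Each SE was derived from the log2 change and its F statistic. Values per library were compared with exact permutation tests over the 6 assignments of the libraries.

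The text names, by rule, the 4 members with the largest sums in each family, bins past the threshold, the 6 contacts with the smallest p per direction, the 5 longest contacts listed in all 4 libraries, the partner with the most read pairs, the 5 members with the most stage-restricted contacts, and contacts that join members. Other members in the text, such as Rpl38, Ndufa6 and Rps9, were chosen after their values were seen. The members and gene lists were chosen with earlier results of these data known. The alternatives were library totals without TMM, DESeq2 1.42.0, other filters, a stricter FDR, lists of equal length, clusters counted once, at most 200 kb, start bins, unshared bins, whole gene spans, each library left out, and a block for the replicate number. Leaving out the Psmd11 and Psmd12 bins was chosen after seeing the data.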

Additional observations from a re-analysis of the deposited data

How the results depend on the processing

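At E16.5 the number of member interactions, the share of members with any and the median distance kept their direction, higher than at E12.5, under the alternatives run, except that with lists of equal length the difference in number was -19.5 interactions and that at most 200 kb apart the difference in median distance was 0 kb. The exact permutation test over 2 libraries against 2 cannot reach 0.05. The difference in the share of gene-end partners (-0.611 points) turned to 2.45 at an FDR under 0.0001, 2.22 with clusters counted once and 0.949 at most 200 kb apart, and ran from -3.76 to 2.54 as each library was left out. The cause was not tested.

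Calls among member bins in contact number were 1 in the reported fit, and 0 with DESeq2, a quasi-dispersion of at least 1, no filter, lists of equal length, an FDR under 0.0001, clusters counted once, at most 200 kb, read pairs or all bins, and 0 to 1 as each library was left out. With a sum of at least 20 the 1 call is the bin of Ndufb1 and Cpsf2 (adjusted p = 0.0370 by edgeR), and the 1 call without E12.5 replicate 2 is the Rpl38 start bin (adjusted p = 0.0479 by edgeR), not that of Ndufaf2. Over all bins, 181 were higher and 53 lower, against 32 and 8 by DESeq2, 20 and 4 with a quasi-dispersion of at least 1, 104 and 23 with no filter, 56 and 25 with lists of equal length, 44 and 21 at the stricter FDR, 13 and 0 with clusters counted once, 16 and 1 at most 200 kb apart, 69 and 25 with read pairs, 0 and 0 with all bins, and from 0 and 0 to 111 and 32 as each library was left out. Calls among member contacts were 8, and 1 with DESeq2, 0 with contacts listed in at least 3 libraries, 0 with the expected count as an offset, 1 without the Psmd11 bin, 0 without the Psmd11 and Psmd12 bins, and 2 to 10 as each library was left out. Over all contacts, 404 rose and 315 fell, against 59 and 39 by DESeq2, 0 and 0 with the expected count as an offset or with contacts listed in at least 3 libraries, and 213 and 193 among contacts averaging 40 or more read pairs. With 1 library left out the counts were 149 and 152 (E12.5 replicate 1), 132 and 142 (E12.5 replicate 2) and 314 and 161 (E16.5 replicate 2). Some settings leave fewer bins or contacts. The setting of at least 3 libraries held more contacts, 13400 against 6875. In it, a library that did not list a contact entered with 0 read pairs. The cause of the differences in calls was not tested.

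The replicate numbers only share a number: same-numbered libraries deviated together with a correlation of 0.056 in contact number and 0.126 in contact strength. With 2 libraries per stage, deviations from the stage mean mirror each other. The 2 pairs therefore give the same value by construction, and each correlation is a single value. With the replicate number as a block, 2 member bins (Ndufaf2 with Ercc8 and, at an adjusted p of 0.0352 by edgeR, Ndufb1 with Cpsf2) and 13 member contacts were called, and over all bins 308 were higher and 77 lower. Depth limits all counts, since a pair that is not listed may have gone undetected.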

Other observations

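Some members lie side by side and share their contacts. On chromosome 17, Rps2, Ndufb10 and Rpl3l, of which Rpl3l is the muscle form of Rpl3, have end bins in common and had 0, 2, 1 and 0 interactions for Rps2 and for Ndufb10 and 0, 4, 2 and 0 for Rpl3l. All of these come from E12.5 replicate 2 and E16.5 replicate 1. Rps19bp1 and Rpl3 on chromosome 15 both met Fam83f, Rps19bp1 in 4 distinct contacts at 410 to 440 kb and Rpl3 in 2 at 610 to 620 kb.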
